A study of Mus musculus with 12 samples.

Results

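The urea cycle turns ammonia, which is released when amino acids are broken down, into urea for excretion, and periportal hepatocytes are its main site. N-acetylglutamate synthase (Nags) makes the activator of carbamoyl phosphate synthetase 1 (Cps1), and Cps1 and ornithine transcarbamylase (Otc) then form citrulline inside mitochondria. Argininosuccinate synthase (Ass1), argininosuccinate lyase (Asl) and arginase 1 (Arg1) complete the cycle in the cytosol, where arginase releases urea and ornithine. Slc25a15 carries ornithine back into mitochondria in exchange for citrulline, Slc25a13 (citrin) exports aspartate for the Ass1 step, and ornithine aminotransferase (Oat) connects ornithine with glutamate and proline.

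These 9 genes were taken by symbol from the 16346 genes of the liver RNA-seq table. The 7 others complete the pathway around Oat and Slc25a15, which were named because their sucrose responses depended on genotype in these same data. The difference between genotypes in the sucrose response of Oat and Slc25a15 is therefore given as a description, without a test. All 9 genes passed the filter on low values, a mean normalized count of at least 10.

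Livers came from 12 mice of the C57BL6J strain at 12 weeks of age, 2 mice in each of 6 groups. Control mice carried the floxed Med13 allele (Med13fl/fl) without Cre, and MED13-LKO mice carried the same allele with Alb-Cre, a Cre recombinase driven by the albumin promoter and so active in hepatocytes. Med13 encodes the Mediator subunit that links the kinase module to the core complex. Mice of either genotype were fasted overnight for 16 h, or were refed for 4 h after that fast with normal chow and drinking water holding 30% sucrose or 30% fructose. Fasted mice were killed earlier in the day than refed mice, so feeding and hour of death cannot be told apart, and chow was given with both sugars.

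Normalized counts summed to between 21062200 and 24152900 in the control libraries and between 17309200 and 18738600 in those labelled MED13-LKO. Reads counted on genes were estimated at 16109100 to 24197500 per library. The count of Med13 was not lower under the MED13-LKO label. It stood at 674 and 796 normalized counts in the fasted, 578 and 673 in the sucrose and 607 and 778 in the fructose control libraries, against 808 and 899, 646 and 717, and 681 and 1055 in the matching MED13-LKO libraries. The labels were therefore not checked by this transcript, and directions below are those of the libraries as labelled. Hepatocyte markers were abundant in all libraries, with summed counts of the 7 measured genes of 2432350 to 3057590 in control and 1856390 to 2209690 in MED13-LKO libraries. The T cell marker Cd3e (0.929 to 6.20) and the pancreas marker Cela1 (0 to 5.62) were near 0. Other members of their lists were not. Summed counts ran from 171 to 323 for the lymphocyte list and from 754 to 2147 for the pancreas and intestine list. Each list held 1 gene that passed the filter on low values. Each such gene was called higher in MED13-LKO liver averaged over the diets, where 12.1% of tested genes were. Control fructose replicate 2 stood apart among the refed libraries in Pck1, a gluconeogenic gene, at 48079 against 4235 to 15349 in the other 7.

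The DNA just upstream of Oat, Slc25a15 and Nags is shown because these genes departed from the rest of the pathway, Oat and Slc25a15 by their response to sucrose and Nags by its direction. Each sequence gives the 250 bases before an annotated RefSeq transcript start on GRCm38.p6, written 5′ to 3′ on the strand of the gene. Oat lies on the minus strand (chr7:132576399-132576648), Slc25a15 on the minus strand with 2 listed starts (chr8:22398622-22398871 and chr8:22398278-22398527), and Nags on the plus strand (chr11:102145263-102145512). Capitals mark matches to any of 5 short motifs, read on both strands.
Oat: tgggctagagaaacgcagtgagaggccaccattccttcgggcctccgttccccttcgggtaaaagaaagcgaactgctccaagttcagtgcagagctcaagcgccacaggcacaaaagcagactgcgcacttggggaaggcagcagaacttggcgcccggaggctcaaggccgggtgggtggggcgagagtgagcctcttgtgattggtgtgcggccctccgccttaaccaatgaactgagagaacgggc
Slc25a15, start 1: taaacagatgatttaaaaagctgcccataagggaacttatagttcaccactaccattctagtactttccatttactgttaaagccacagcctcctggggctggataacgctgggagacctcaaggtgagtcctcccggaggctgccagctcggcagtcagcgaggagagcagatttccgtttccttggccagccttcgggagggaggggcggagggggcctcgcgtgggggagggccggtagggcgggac
Slc25a15, start 2: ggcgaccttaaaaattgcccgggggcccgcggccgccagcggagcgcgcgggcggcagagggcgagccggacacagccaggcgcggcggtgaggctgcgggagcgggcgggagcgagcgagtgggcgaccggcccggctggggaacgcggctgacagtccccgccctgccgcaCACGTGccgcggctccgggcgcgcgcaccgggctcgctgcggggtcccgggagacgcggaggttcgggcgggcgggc
Nags: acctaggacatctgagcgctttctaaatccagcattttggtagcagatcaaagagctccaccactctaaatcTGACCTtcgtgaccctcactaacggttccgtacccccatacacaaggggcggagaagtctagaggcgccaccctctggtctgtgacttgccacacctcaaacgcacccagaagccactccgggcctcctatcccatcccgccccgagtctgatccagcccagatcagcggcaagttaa

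The motifs searched were TGACG (a cAMP-response half-site), TGTTTAC (forkhead), CACGTG (an E-box core), TTGCNNAA (C/EBP) and AGGTCA (a nuclear receptor half-site), which do not contain one another. Among 32851 promoters of the same length they occurred in 17.8%, 3.17%, 6.02%, 9.56% and 14%, respectively. None of the 5 was found before the start of Oat, before start 1 of Slc25a15 or before Otc. Start 2 of Slc25a15 held an E-box core 77 bases before the start, and Nags held AGGTCA, on the opposite strand, 178 bases before it. Ass1 held an E-box core at 36 bases, and Slc25a13 held an E-box core at 125 bases and TGACG at 13 bases. Such matches are short letter strings that occur by the shares given, and they were not tested for binding. Promoters were matched for 6 of the 9 genes, and Cps1, Asl and Arg1 were not matched.

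Levels of different genes were compared after division by the length of the longest coding transcript, as normalized counts per kilobase. In fasted control liver Ass1 was the most abundant at 37791 ± 4992 per kilobase (SD, n = 2, as for all values here), followed by Arg1 at 27278 ± 268 and Cps1 at 23749 ± 1.42. Next came Oat at 11562 ± 1727, ahead of Asl at 7809 ± 532 and Otc at 4149 ± 191. The carriers were lower, with Slc25a13 at 2070 ± 21.8 and Slc25a15 at 1848 ± 118, and Nags was the least abundant at 515 ± 22.7. No neighbours in this order overlapped. In fasted MED13-LKO liver Oat, at 4141 ± 6.52 per kilobase, lay within the range of Asl, at 4296 ± 350.

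Of the 31-base subsequences of Ass1, 43.1% also occur in the pseudogene Gm5424, which was listed at 0 to 6.45 normalized counts, so the split of reads between these genes is uncertain. Of those of Nags, 14.4% are shared with the overlapping antisense gene Gm11586, which was not among the genes of the table. For Oat the share was 1.16%, and for the other 6 genes it was at most 0.765%. On GRCm38 the transcription units were Cps1 (chr1:67123026-67231259), Otc (chrX:10252305-10321024), Ass1 (chr2:31470207-31520672), Asl (chr5:130011258-130029247), Arg1 (chr10:24915221-24927484), Nags (chr11:102145513-102149477), Oat (chr7:132557478-132576398), Slc25a15 (chr8:22375551-22398597) and Slc25a13 (chr6:6041218-6217173).

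Oat, chosen for this, had the largest difference between genotypes in the response to sucrose among the 9 genes. The fasted control mice had 27508 and 22253 normalized counts, those given sucrose 15200 and 15719, and those given fructose 16967 and 15634. The fasted MED13-LKO mice had 8922 and 8902, those given sucrose 13796 and 13218, and those given fructose 10579 and 9535. Both refed control groups thus lay below the fasted control mice, and both refed MED13-LKO groups lay above the fasted MED13-LKO mice, with no overlap. This is a description, since the fasted and sucrose values entered the choice of Oat. The share of all genes arranged in this way is not given here. Groups this small often lie apart. Within single diets both MED13-LKO libraries lay below both control libraries in 25.2% to 28.1% of tested genes, and above them in 25% to 28.9%. For Oat, fasted MED13-LKO liver held 35.8% of the fasted control mean, against 87.4% with sucrose and 61.7% with fructose. In the order of the 6 group means, only the sucrose and fructose control groups overlapped.

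On the scale of log2(normalized count + 1), used for all fold changes, the sucrose response of Oat was -0.68 (SE 0.10) in control and 0.60 (SE 0.10) in MED13-LKO mice. The difference between these responses, 1.28 (SE 0.15), is the value for which Oat was chosen, so it was not tested. With fructose the responses were -0.60 in control and 0.17 (95% interval -0.06 to 0.40) in MED13-LKO mice. Their difference was 0.78 (SE 0.15, 95% interval 0.45 to 1.10). That difference did not pass the test over all genes (limma, Benjamini-Hochberg adjusted p = 0.195), in a comparison where 3 genes, 0.0243%, were called, and it shares the fasted libraries with the sucrose comparison. Averaged over the 3 diets Oat was lower in MED13-LKO liver, at -0.79 (SE 0.06, limma adjusted p = 1.68e-05). This average is independent of the sucrose difference by its weights, but it includes the fasted and sucrose libraries that entered the choice. With fructose alone Oat was lower, at -0.70 (SE 0.10, limma adjusted p = 0.00395), a call kept when any single library was left out.

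Slc25a15, the mitochondrial ornithine carrier, showed the same arrangement with smaller changes. Its normalized counts were 6054 and 6626 in fasted, 4204 and 4098 in sucrose-refed and 4894 and 5205 in fructose-refed control mice. They were 3358 and 3191, 3515 and 3464, and 3690 and 3886 for these diets in MED13-LKO mice. All 6 group means were separated without overlap, and the fasted mice were highest in control and lowest in MED13-LKO liver. As for Oat, this is a description, and the share of all genes arranged in this way is not given. The fasted MED13-LKO mean was 51.6% of control, against 84.1% with sucrose and 75.02% with fructose.

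The sucrose response of Slc25a15 was -0.61 (SE 0.07) in control and 0.09 (SE 0.07, 95% interval -0.07 to 0.26) in MED13-LKO mice. The difference between these responses, 0.70 (SE 0.10), led to its choice. Its fructose responses were -0.33 and 0.21, and the difference of 0.54 (SE 0.10, 95% interval 0.30 to 0.77) was not called (limma adjusted p = 0.195). As for Oat, this comparison shares the fasted libraries with the sucrose comparison that led to the choice. Averaged over the diets, which again includes the fasted and sucrose libraries, Slc25a15 was lower in MED13-LKO liver, at -0.54 (SE 0.04, limma adjusted p = 2.2e-05). With fructose alone it was lower, at -0.41 (SE 0.07, limma adjusted p = 0.00949), and this call was lost without MED13-LKO fructose replicate 1 (adjusted p = 0.0622). Rescaling the libraries to equal totals left the sucrose differences at 1.22 for Oat and 0.64 for Slc25a15.

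**Figure D1:**
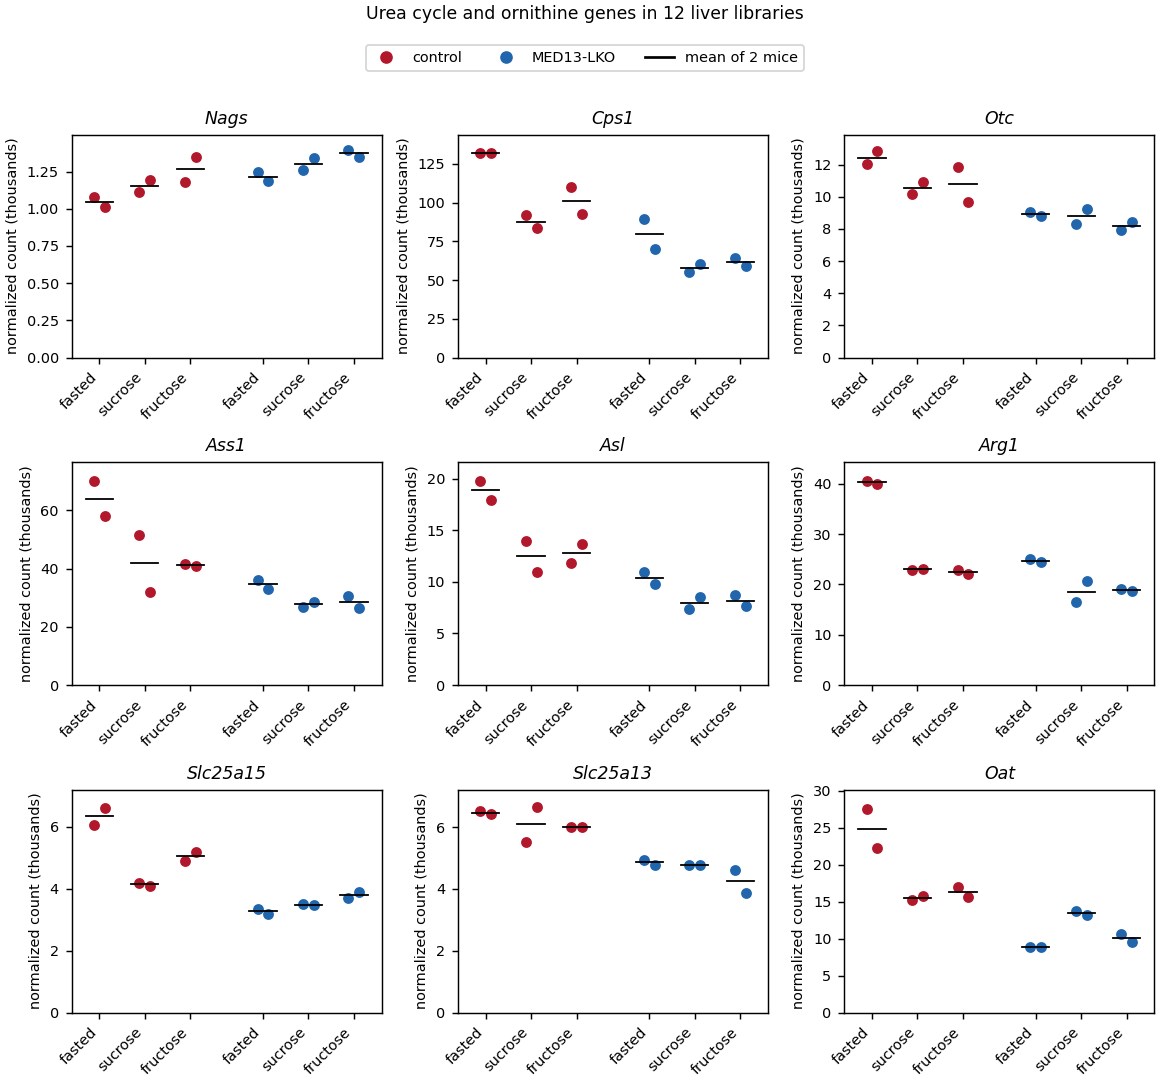
Normalized counts (axes in units of 1000 and starting at 0) of the 9 genes in each of 12 liver libraries, by diet, with control mice in red, MED13-LKO mice in blue and a line at the mean of 2 mice. Oat and Slc25a15 were highest in fasted control and lowest in fasted MED13-LKO mice, and Nags alone was higher in MED13-LKO than in control libraries at each diet.

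Cps1, which commits ammonia to the cycle, stood at 131920 and 131931 normalized counts in fasted, 91822 and 83704 in sucrose-refed and 109848 and 92423 in fructose-refed control liver. In MED13-LKO liver it stood at 89346 and 69806, 55239 and 60326, and 64107 and 58890, ordered by diet in the same way. Each genotype was thus highest when fasted, and the fasted MED13-LKO mice overlapped the control mice refed with sucrose. Averaged over the diets Cps1 was lower in MED13-LKO liver, at -0.69 (SE 0.08, limma adjusted p = 0.000243).

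Otc, which joins carbamoyl phosphate to ornithine, was 12030 and 12841 in fasted, 10193 and 10902 in sucrose and 11835 and 9700 in fructose control liver. Its MED13-LKO values were 9077 and 8818, 8331 and 9241, and 7926 and 8455. All 6 MED13-LKO libraries lay below all 6 control libraries, and the 3 MED13-LKO diets overlapped each other in order of their means. The averaged genotype difference was -0.38 (SE 0.06, limma adjusted p = 0.00145).

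Ass1 was 70080 and 58106 in fasted, 51505 and 32052 in sucrose-refed and 41485 and 40857 in fructose-refed control liver. In MED13-LKO liver it was 36112 and 33059, 26807 and 28716, and 30450 and 26361. The sucrose control pair was the widest of this gene, and its lower mouse fell below the fasted MED13-LKO mice. Asl, the next enzyme, was 19751 and 17937, 13960 and 10952, and 11802 and 13690 in control and 10963 and 9770, 7362 and 8506, and 8756 and 7620 in MED13-LKO liver. The ratio of Ass1 to Asl stayed between 2.93 and 3.69 in all 12 libraries. Averaged genotype differences were -0.66 (SE 0.11, limma adjusted p = 0.00198) for Ass1 and -0.71 (SE 0.08, limma adjusted p = 0.000187) for Asl.

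Arg1, which releases urea, was 40570 and 40009 in fasted, 22935 and 23000 in sucrose-refed and 22900 and 22096 in fructose-refed control liver. The MED13-LKO values were 25051 and 24370, 16504 and 20578, and 19126 and 18611. Fasted control liver stood far above the other 5 groups, and the fasted MED13-LKO pair lay only just above the refed control mice. The averaged genotype difference was -0.43 (SE 0.06, limma adjusted p = 0.000613).

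Slc25a13 was 6509 and 6413, 5513 and 6665, and 6000 and 5993 in fasted, sucrose and fructose control liver. In MED13-LKO liver it was 4944 and 4782, 4778 and 4763, and 4614 and 3878. The sucrose control pair spanned the other control mice, among which those given fructose lay below the fasted ones. Every MED13-LKO library was below every control library, and the averaged genotype difference was -0.42 (SE 0.06, limma adjusted p = 0.000832).

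Nags, the source of the Cps1 activator, went the other way. It was 1078 and 1013 in fasted, 1113 and 1196 in sucrose and 1182 and 1345 in fructose control liver, and 1245 and 1184, 1263 and 1340, and 1394 and 1349 in MED13-LKO liver. Within each diet both MED13-LKO libraries were above both control libraries, although the groups of different diets overlapped. The averaged difference was 0.17 (SE 0.05, limma adjusted p = 0.0354), and the call was lost without any 1 of 10 libraries (adjusted p 0.0518 to 0.0935), the exceptions being control sucrose replicate 2 and control fructose replicate 2.

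Genotype was compared to ask how the pathway stood in liver labelled as lacking MED13. Averaged over the diets 8 of the 9 genes were called lower in MED13-LKO liver, where 13.2% of all tested genes were called lower, and 1 was called higher, where 12.1% were. Oat and Slc25a15 are among the 8, and this average includes the fasted and sucrose libraries that entered their choice. The median of the 9 genes was -0.54 and that of all tested genes was 0.01. The pathway is abundant, and among the 2447 genes whose mean reached 1000 the shares were 35.7% lower and 8.3% higher, with a median of -0.11. Among the 475 genes that reached 5000 the median was -0.26, and the shares called among them are not given. Of the 7 genes not chosen by their sucrose response, Otc and Slc25a13 had all 6 MED13-LKO libraries below all 6 control libraries, an arrangement found in 4.93% of tested genes. Within single diets both MED13-LKO libraries lay below both control libraries for 6 of these 7 genes when fasted, with sucrose and with fructose, against 28.1%, 27.2% and 25.2% of tested genes, and above them for Nags, against 28.9%, 26% and 25%. Oat and Slc25a15 were arranged like Otc and Slc25a13, which is a description, since their fasted and sucrose values entered their choice.

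These genotype values rest on the authors' scaling of the libraries. Rescaling to equal totals moved the averaged genotype difference of all genes by 0.32 at the median, and the share of calls that were lower went from 52.3% of 3127 to 5.39% of 7514. In single diets that share went from 54.1% to 5.62% when fasted, from 55.2% to 7.58% with sucrose and from 51.3% to 6.55% with fructose. Under it the 8 genes remained lower at -0.06 to -0.47, but Otc (-0.06, limma adjusted p = 0.300), Arg1 (-0.11, adjusted p = 0.0910) and Slc25a13 (-0.10, adjusted p = 0.142) were no longer called, and Nags stood at 0.49. Relative to that shift Oat (-0.47), Asl (-0.40), Cps1 (-0.37), Ass1 (-0.34) and Slc25a15 (-0.22) were still called lower. Summed hepatocyte markers moved with genotype as well, and 5 of the 7 tested were called lower. All marker counts here are for the averaged genotype difference under the authors' scaling. In it 13.2% of all tested genes were called lower and 12.1% higher, or 35.7% and 8.3% of the abundant ones. Among other cells 4 of 6 sinusoidal endothelial markers and 2 of 8 Kupffer cell markers were called higher, with summed endothelial counts of 3398 to 3939 in control and 3927 to 5294 in MED13-LKO libraries and Kupffer counts of 4295 to 6052 and 5477 to 7334. Of 4 erythroid markers, the globins Hba-a1 (-0.80), Hbb-bs (-0.62) and Hbb-bt (-0.62) were called lower, with summed erythroid counts of 6608 to 10752 in control and 4363 to 8058 in MED13-LKO libraries, and Alas2 was not called (-0.04). Lower calls were also given to 2 of 6 stellate cell and 1 of 3 cholangiocyte markers. The part of these cell markers in the result was not tested, and in whole liver fewer cells of a type and less RNA per cell cannot be told apart.

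In fasted liver 6 of the 7 genes tested were called lower in MED13-LKO mice, where 4.86% of all genes and 14.5% of those with a mean of 1000 or more were, and Nags was not called. Their changes ran from -0.41 for Slc25a13 to -0.89 for Ass1, and Oat and Slc25a15 stood at -1.47 and -0.95 without a test. Asl (-0.86) and Arg1 (-0.71) kept their calls without any single library, while Cps1, Otc, Ass1 and Slc25a13 lost theirs without at least 3 of the 4 fasted libraries, and without either control fasted library or MED13-LKO fasted replicate 2 the count was 2. Slc25a13 lost its call without either MED13-LKO sucrose library too, and without MED13-LKO fasted replicate 1 the count was 3. Under equal totals Cps1, Asl and Arg1 were still called lower, Otc (-0.13, adjusted p = 0.238), Ass1 (-0.54, adjusted p = 0.0607) and Slc25a13 (-0.07, adjusted p = 0.626) were not, and Nags was called higher (0.56, limma adjusted p = 0.00388).

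With sucrose 2 genes were called. Cps1 (-0.60, limma adjusted p = 0.0313) and Asl (-0.64, limma adjusted p = 0.0244) were called lower among the 7 tested, where 3.33% of all genes and 11.5% of the abundant ones were. Both calls were lost without either MED13-LKO sucrose library or control sucrose replicate 1, which took the count to 0 or 1, and that of Cps1 was also lost without control sucrose replicate 2 or either control fasted library. Calls were gained by Slc25a13 without control sucrose replicate 1, by Ass1 without control sucrose replicate 2 and by Arg1 without MED13-LKO sucrose replicate 2. Oat (-0.19) and Slc25a15 (-0.25) lay near the bottom of the range in size, and under equal totals they and Otc turned to values of 0.02 to 0.09. That scaling also ended the calls of Cps1 (-0.32, adjusted p = 0.101) and Asl (-0.36, adjusted p = 0.116), and Nags was called higher (0.46, limma adjusted p = 0.0155).

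With fructose 6 of 9 genes were called lower, where 3.95% of all genes and 12.2% of the abundant ones were, namely Cps1 (-0.71), Otc (-0.39), Asl (-0.64), Slc25a13 (-0.50), Oat and Slc25a15. The count was 2 without MED13-LKO fructose replicate 2, which ended the calls of Cps1, Otc, Asl and Slc25a13, and 3 without control fructose replicate 1, which ended those of Cps1, Otc and Slc25a13. Without control fructose replicate 2, the library high in Pck1, Asl was lost (adjusted p = 0.0774) and 5 were called. Otc lost its call without any library but that one, and Ass1 (-0.54) gained a call without either control sucrose library. Under equal totals 3 genes were called, Cps1 and Oat lower and Nags higher, and Arg1 turned from -0.25 to 0.07.

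**Figure D2:**
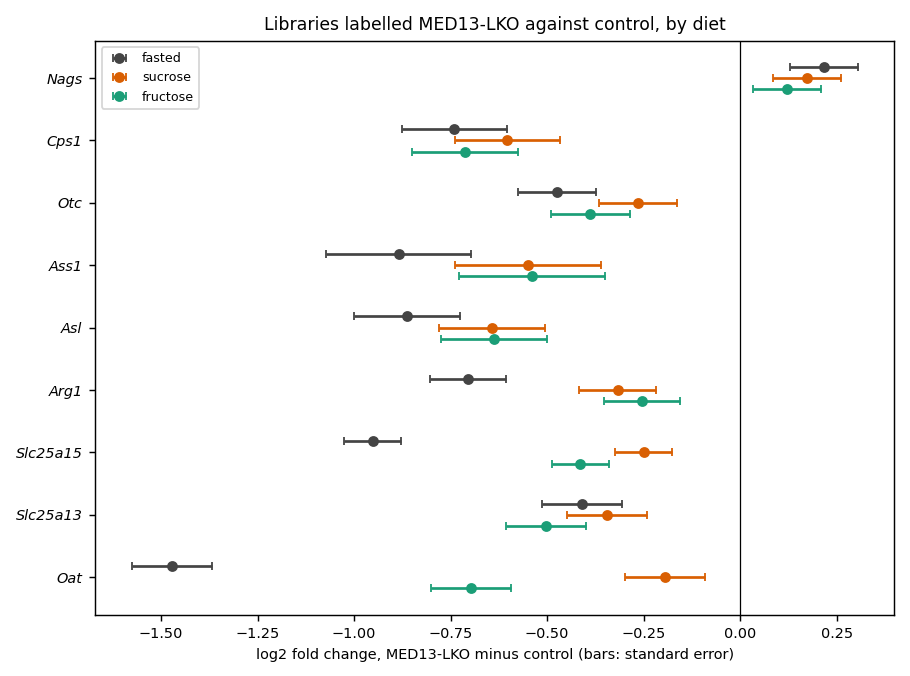
Log2 fold change of each gene, MED13-LKO minus control, in fasted, sucrose-refed and fructose-refed mice (bars, standard error, 2 mice per group). Oat ranged from -1.47 when fasted to -0.19 with sucrose, and Nags was the gene on the right of 0 at each diet. Under equal totals Otc, Oat and Slc25a15 with sucrose and Arg1 with fructose turned positive.

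Refeeding was compared with fasting to ask how the pathway responded to a meal. Averaged over sugars and genotypes 5 of the 9 genes were called lower after refeeding, where 11% of all genes were called lower, and Nags was called higher, where 10.7% were (20% and 12.6% of the abundant genes). The median of the 9 genes was -0.16, and that of all tested genes was -0.01. Arg1 fell most, at -0.62 (SE 0.06, limma adjusted p = 0.000144), followed by Asl at -0.48 (SE 0.08, limma adjusted p = 0.00349), Ass1 at -0.47 (SE 0.12, limma adjusted p = 0.0172) and Cps1 at -0.45 (SE 0.08, limma adjusted p = 0.00469). Slc25a15 stood at -0.16 on average (limma adjusted p = 0.0319), and Nags rose by 0.17 (limma adjusted p = 0.0470). Otc (-0.15), Oat (-0.13) and Slc25a13 (-0.11) were not called, and for Oat the average combines -0.68 and -0.60 in control with 0.60 and 0.17 in MED13-LKO mice. That of Slc25a15 combines -0.61 and -0.33 in control with 0.09 and 0.21 in MED13-LKO mice, so its call does not describe both genotypes.

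The refeeding calls of Arg1, Asl and Cps1 were kept without any single library. The call of Ass1 was lost without either replicate 1 of the fasted mice, control or MED13-LKO, that of Slc25a15 without any of 7 libraries (both MED13-LKO fasted, both MED13-LKO sucrose, MED13-LKO fructose replicate 1, control fasted replicate 2 and control sucrose replicate 2), and that of Nags without any library but control fructose replicate 1. Otc became called without control fructose replicate 1 (limma adjusted p = 0.0283). Without MED13-LKO fasted replicate 1 the count was 3. Under equal totals all tested genes moved by 0.11 at the median, the share of refeeding calls that were lower went from 50.7% to 23.2%, and Arg1 (-0.51), Asl (-0.37), Cps1 (-0.34) and Nags (0.28) stayed called while Ass1 (-0.36, adjusted p = 0.0543) and Slc25a15 (-0.05) did not. Of the cell markers, 3 of 4 erythroid genes were called lower after refeeding (-0.55 to -0.65), where 11% of all genes and 20% of the abundant ones were. Summed erythroid counts were 7434 to 10752 in fasted and 4363 to 8751 in refed libraries. Also called lower were 1 of 7 hepatocyte and 1 of 6 endothelial markers, and none of 8 Kupffer markers was. The part of these cell markers in the refeeding result was not tested.

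In control mice 3 of the 7 genes tested fell with sucrose, Arg1 at -0.81 (limma adjusted p = 0.00123), Asl at -0.61 (limma adjusted p = 0.0245) and Cps1 at -0.59 (limma adjusted p = 0.0276), where 3.72% of all genes were called lower. Cps1 lost its call without any of the 4 libraries compared and Asl without 3 of them, all but control sucrose replicate 1, while Ass1 (-0.65) gained one without that library. With fructose Arg1 (-0.84) and Asl (-0.57) were called lower, where 2.81% of genes were. Asl lost this call without any of 9 libraries (adjusted p 0.0502 to 0.177), the exceptions being both control sucrose libraries and control fructose replicate 2, and Ass1 (-0.63) gained one without either control sucrose library. Under equal totals Asl lost its call with sucrose (-0.48, adjusted p = 0.0705) and with fructose (-0.44, adjusted p = 0.104), and Nags was called higher with fructose (0.40, limma adjusted p = 0.0424). The share of lower calls over all genes then went from 43.4% to 20.9% for sucrose and from 50.1% to 19.6% for fructose in control, and from 60.9% to 40.8% and from 54.9% to 29.5% in MED13-LKO mice.

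In MED13-LKO mice Arg1 was the single gene of the 7 tested that was called after either sugar, lower, at -0.42 with sucrose (limma adjusted p = 0.0368) and at -0.39 with fructose (limma adjusted p = 0.0463), where 3.48% and 3.58% of all genes were called lower. The sucrose call was lost without any of 9 libraries, the exceptions being MED13-LKO sucrose replicate 2 and both control fructose libraries, and the fructose call without any of 8, the exceptions being the MED13-LKO sucrose and the control fructose libraries. The response of Arg1 in MED13-LKO minus that in control mice was 0.39 (SE 0.14) with sucrose, given without a test, and 0.45 with fructose (SE 0.14, 95% interval 0.14 to 0.76), which was not called (limma adjusted p = 0.416). Differences of the other 6 tested genes between genotypes in the fructose response ran from -0.10 for Nags to 0.35 for Ass1, each with an interval that included 0. Of 1170 genes with an unadjusted p under 0.05 in that comparison, 3 passed the adjustment, and none of the 9 genes was among them. Sucrose differences of the 7 genes, without a test, ran from -0.04 for Nags to 0.39 for Arg1, all below Slc25a15 at 0.70 and Oat at 1.28.

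**Figure D3:**
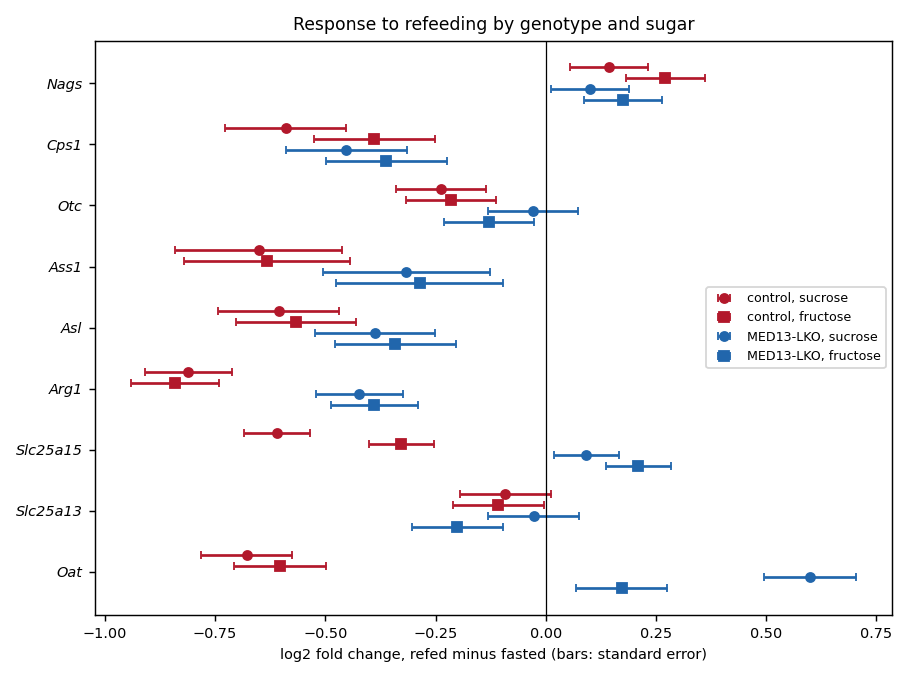
Log2 fold change of each gene, refed minus fasted, for sucrose (circles) and fructose (squares) in control (red) and MED13-LKO (blue) mice, with standard errors. Oat and Slc25a15 lie left of 0 in control and right of 0 in MED13-LKO mice, whereas Cps1, Ass1, Asl and Arg1 lie left of 0 in all 4 comparisons. Slc25a13 in control mice and Otc and Slc25a13 with sucrose in MED13-LKO mice changed side under equal totals.

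The sugars themselves were compared with each other. None of the 7 genes tested differed between fructose and sucrose in control mice (limma, -0.03 to 0.20) or in MED13-LKO mice (-0.17 to 0.09), where 0.0404% of genes, 5 of 12366, were called in either genotype and 1061 and 951 had an unadjusted p under 0.05. The widest intervals of the difference were those of Ass1, -0.40 to 0.44 in control and -0.39 to 0.45 in MED13-LKO mice. For the genes chosen by their sucrose response, Oat with fructose minus sucrose stood at -0.43 (SE 0.10) in MED13-LKO and 0.08 in control mice. Slc25a15 stood at 0.28 (SE 0.07) in control and 0.12 in MED13-LKO mice. These 4 values are descriptions.

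Ratios within a library do not depend on the scaling of the libraries. Whole liver was measured, so a ratio does not show that both transcripts lie in the same cells. Per Otc, which also uses ornithine, Oat stood at 2.29 and 1.73 in fasted control liver and at 0.983 and 1.01 in fasted MED13-LKO liver. After sucrose the ratio was 1.49 and 1.44 in control and 1.66 and 1.43 in MED13-LKO liver, and after fructose it was 1.43 and 1.61 against 1.34 and 1.13. The genotypes were therefore apart when fasted and with fructose and overlapped with sucrose. Per 1000 Cps1, Oat ran from 99.9 and 127.5 in fasted MED13-LKO liver to 249.7 and 219.1 in sucrose-refed MED13-LKO liver, the lowest and highest pairs of the 6, with all control values between 154.5 and 208.5.

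Nags per 1000 Cps1 was 8.17 and 7.68 in fasted, 12.1 and 14.3 in sucrose-refed and 10.8 and 14.6 in fructose-refed control liver. The MED13-LKO values were 13.94 and 16.96, 22.9 and 22.2, and 21.8 and 22.9. The ratio was higher in MED13-LKO than in control libraries at each diet and higher in refed than in fasted libraries of each genotype, without overlap.

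**Figure D4:**
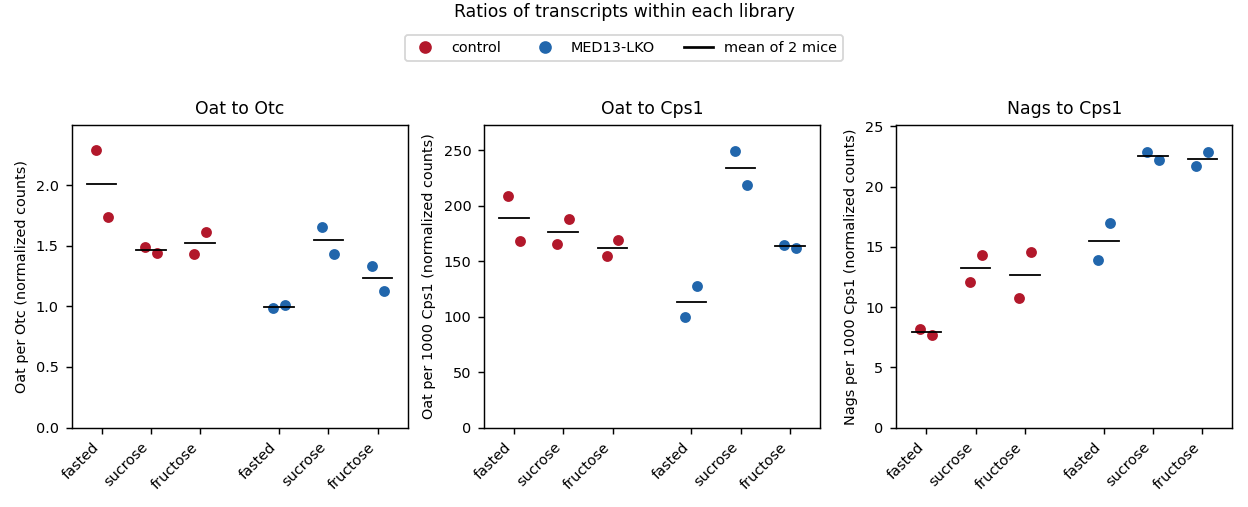
Ratios of normalized counts within each library, Oat per Otc, Oat per 1000 Cps1 and Nags per 1000 Cps1, with control mice in red, MED13-LKO mice in blue and a line at the mean of 2 mice. Oat per Cps1 was lowest in fasted and highest in sucrose-refed MED13-LKO mice, and Nags per Cps1 lay between 21.8 and 22.9 in the 4 refed MED13-LKO libraries.

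Over the 12 libraries and the 8858 genes whose mean reached 100, the genes outside the pathway whose log2 levels were most like Oat were Hgd (Pearson's r 0.954), Psmc1 (0.938) and Ndufa3 (0.934). For Slc25a15 they were Mrps21 (0.956), Ap4b1 (0.947) and Hgd (0.925). Hgd was 13105 and 12450 in fasted control liver against 6653 and 6100 in fasted MED13-LKO liver, and 7057 and 7594 in MED13-LKO liver with sucrose. Oat and Slc25a15 correlated with each other at 0.874. These correlations describe 12 points that fall into 6 groups and share their libraries.

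Other genes of nitrogen handling were taken from lists for the steps around the cycle. Their counts stand beside the shares already given, which with genotype were 13.2% lower and 12.1% higher of all genes and 35.7% and 8.3% of the abundant ones, and with refeeding 11% and 10.7% of all and 20% and 12.6% of the abundant ones. Of 13 tested genes of ammonia supply and support, 6 were called lower in MED13-LKO liver and none higher, with a median of -0.21. The largest were asparagine synthetase (Asns) at -2.50, cytosolic aspartate aminotransferase (Got1) at -0.78 and liver glutaminase (Gls2), which feeds ammonia to Cps1, at -0.50. Asns was variable and low, at 21.2 to 396.7 in control and 9.94 to 31.1 in MED13-LKO libraries. Glutamate dehydrogenase (Glud1) was lower, at -0.22, while mitochondrial aspartate aminotransferase Got2 (-0.000295) and the citrin paralogue Slc25a12 (0.18) were not called. After refeeding 6 of the 13 fell and none rose, Got1 at -1.20, Aspg at -0.38 and Gpt2 at -0.36.

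Glutamine synthesis and transport, which takes up ammonia that escapes the cycle, had 3 of 5 tested genes lower in MED13-LKO liver, where 35.7% of abundant genes were. These were the glutamine transporter Slc38a3 at -1.0009, the glutamate transporter Slc1a2 at -0.78 and glutamine synthetase (Glul) at -0.48. Slc38a3 was 2314 to 3814 in control and 1230 to 1719 in MED13-LKO libraries, without overlap. With refeeding Slc38a2 (-1.44), Slc38a3 (-0.38) and Slc1a2 (-0.29) fell, and Glul stood at 0.12 and was not called.

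The ornithine, proline, polyamine and arginine genes, the partners of Oat, did not move in one direction. Of 23 tested, 7 were lower and 5 higher in MED13-LKO liver, with a median of -0.14. The share called lower was below the 35.7% of abundant genes and above the 13.2% of all. Proline dehydrogenase (Prodh), which like Oat yields pyrroline-5-carboxylate, was lower, at -0.52, and the polyamine oxidase Paox at -0.59. Among those higher was antizyme inhibitor 2 (Azin2, 0.88), a low gene at 10.1 to 41.4 normalized counts. Ornithine decarboxylase (Odc1, 0.11) and Aldh18a1 (0.19), the first enzyme of proline synthesis, were not called. Arg2, Pycr1 and Slc25a2 did not pass the filter, with Arg2 at 0 to 7.88. After refeeding 3 fell and 3 rose, among them the arginine and ornithine transporter Slc7a2 at -1.60 and spermidine synthase (Srm) at 0.70.

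Of 12 tested regulators known to act on urea cycle genes, 5 were lower and 1 higher in MED13-LKO liver, near the 35.7% of abundant genes called lower. Cebpb (-0.57) and the glucagon receptor Gcgr (-0.41) were among those lower, and the coactivator Ppargc1a (0.47) was higher. Gcgr was 3823 to 4325 in control and 2737 to 3237 in MED13-LKO libraries. After refeeding 6 fell and 1 rose, where 20% and 12.6% of abundant genes did, with Cebpb at -1.38, Foxo1 at -1.35 and Klf15 at -1.29 the largest.

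Amino acid catabolism, the source of the ammonia, had 13 of 23 tested genes lower in MED13-LKO liver and none higher, with a median of -0.30, beside 13.2% of all and 35.7% of abundant genes called lower. Cystathionine gamma-lyase (Cth, -0.71), methionine adenosyltransferase 1A (Mat1a, -0.67) and homogentisate dioxygenase (Hgd, -0.67) led them. After refeeding, where 11% of all and 20% of abundant genes were called lower, 15 fell and 1 rose, with tyrosine aminotransferase (Tat) at -1.89 and serine dehydratase (Sds) at -1.70. The gene that rose, Bckdhb at 3.21, ranged from 4.50 to 697.7 across the libraries and from 4.50 to 180.6 between the control mice refed with fructose. Averaged over the diets 5 of 10 periportal markers and 5 of 11 pericentral markers were called lower in MED13-LKO liver and none of either zone higher, again beside 35.7% of abundant genes. After refeeding 6 of the 10 periportal markers were called lower and 1 higher, with a median of -0.26. Of the 11 pericentral markers 2 were called lower and 1 higher, with a median of 0.03. The part of the zones in the refeeding result was not tested.

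**Figure D5:**
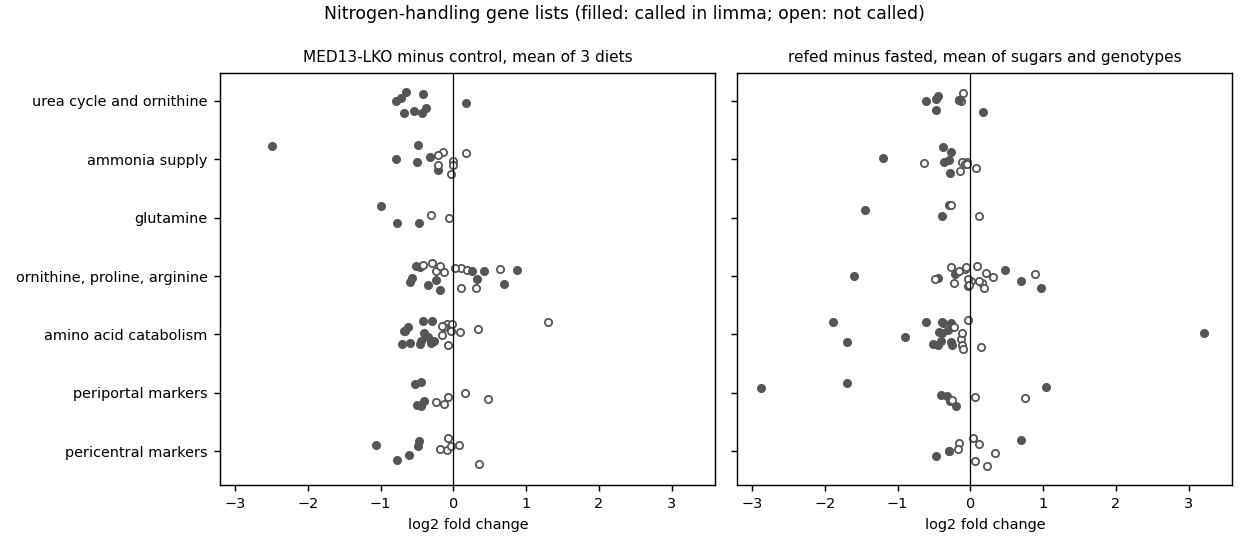
Log2 fold changes of the genes tested in each list, MED13-LKO minus control averaged over 3 diets (left) and refed minus fasted averaged over sugars and genotypes (right), with filled points for genes called in limma and open points for those not called. The 9 urea cycle and ornithine genes lie between -0.79 and 0.17 on the left and between -0.62 and 0.17 on the right. Under equal totals the median of all genes moves by 0.32 on the left and 0.11 on the right.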

How the data were processed

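Normalized counts for 16346 genes by Ensembl identifier were deposited by the authors, and they are treated as a signal rather than as read counts. Per the submitters' processing notes, Trim Galore 0.6.5, kallisto 0.46.0, DESeq2 1.24.0 and mm10 were used, and the transcript annotation is not given in the sources used here. Symbols for 16212 identifiers and gene positions came from GENCODE M21 on GRCm38, and promoter sequences from RefSeq on GRCm38.p6. Replicates are separate mice, and groups came from the sample titles.

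The difference of log2(normalized count + 1) was tested in limma 3.58.1 under R 4.3.3, over 12366 genes with a mean of at least 10, in 1 fit of 6 groups whose variances were moderated along a trend in expression (eBayes). Benjamini-Hochberg adjustment covered all genes tested, and genes under 0.05 are called. The design gave Oat and Slc25a15 a test only in contrasts independent of their sucrose by genotype difference, or, for fructose, sharing with it the fasted libraries. The averaged contrasts still include the fasted and sucrose libraries. Steps of 1 read gave 96.8% to 99.6% whole values under 20 in single-transcript genes (tolerance 0.1) but 62.7% to 64.6% over all genes, so whole reads were not recovered, no count test was run, and the depth per library is an estimate. The fit was tested on simulated data with 200 changed genes. Changes of 0.5 in log2 were recovered in 49% of them for the averaged genotype difference and in 40% for averaged refeeding. They were recovered in 8.5% for genotype with fructose and in 0% for the genotype difference in the fructose response. Changes of 1 were recovered in 79%, 81.5%, 55% and 32.5%, respectively. In the data the averaged genotype and refeeding contrasts called 3127 and 2691 genes, so recovery there need not match these shares. Since recovery was incomplete, a gene that was not called can still differ.

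The 9 genes and the gene lists were chosen with earlier results of these data known. Every one of the 9 genes was named, and from each other list at most the 3 called genes with the largest change plus genes whose role touches the 9 directly, and 2 genes that fell under these rules or the marker lists are not reported here. For Oat and Slc25a15 the 3 most correlated genes were named. Alternatives were pseudocounts of 0.1 and 10, no filter, equal 75th percentiles, equal totals, a block for the replicate number, fits restricted to the groups compared, and omission of each library in turn. Python 3.11.15, NumPy 2.4.6, pandas 2.3.3 and matplotlib 3.10.9 were used for tables and figures.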

Additional observations from a re-analysis of the deposited data

Results flagged for a closer look

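Oat and Slc25a15 moved in opposite directions in the genotypes. Every refed control library lay below both fasted control libraries, and every refed MED13-LKO library lay above both fasted MED13-LKO libraries. The share of all genes arranged in this way is not given, and the fasted and sucrose values entered the choice of these genes. On the log2 scale the response in MED13-LKO minus that in control mice was 1.28 for Oat and 0.70 for Slc25a15 with sucrose, which were not tested because they chose these genes. With fructose it was 0.78 for Oat and 0.54 for Slc25a15, and neither was called (limma, adjusted p = 0.195 for both). The fructose comparison shares the fasted libraries with the sucrose comparison.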

How the results depend on the processing

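Averaged over the diets, the direction of all 9 genes and the calls of the 8 lower ones were kept under every alternative, except that under equal totals Otc, Arg1 and Slc25a13 lost theirs, and none of the 162 values for the genotype average changed sign. The number called was smaller under some settings, and the cause was not tested. Without the filter 1 gene was called in the fructose response of control mice, against 2, and 0 in that of MED13-LKO mice, against 1. Equal 75th percentiles gave 0 for both responses of MED13-LKO mice. Equal totals gave 0 for those responses, 1 for the genotype difference with sucrose, against 2, and 3 with fructose, against 6. The 1 gene was Nags, called higher, while both lower calls were lost, and in fasted mice 3 of the 6 lower calls were lost and Nags was called higher. Fits of only the compared groups, which have fewer samples, gave 0 for the fructose response in control mice, for both responses in MED13-LKO mice and for the genotype difference with sucrose or fructose, and they are the same fit for the averaged contrasts.

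The replicate block gave 1 for the fructose response in control mice and 0 for both responses in MED13-LKO mice, and 9 for the averaged genotype difference and 5 for refeeding. Deviations of same-numbered mice correlated between -0.14 and 0.08 over 15 pairs of groups, so the numbers were not taken to pair the mice. In a fit of the fructose groups alone, added after seeing the data because their correlation was -0.14, the replicate block gave 0 genes and the crossed pairing 5.

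Leaving out 1 library at a time gave 1 to 3 called genes for the sucrose and for the fructose response in control mice, 0 to 1 for each in MED13-LKO mice, 3 to 7 for refeeding, 2 to 6 for the genotype difference when fasted, 0 to 2 with sucrose, 2 to 6 with fructose and 8 to 9 averaged. The sucrose by genotype difference ran from 1.13 to 1.43 for Oat and from 0.64 to 0.77 for Slc25a15. Whether depth limited the calls was not tested.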
